A study of Saccharomyces cerevisiae with 36 samples.

Results

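The genes described here build the nuclear pore complex of budding yeast or run the Ran GTPase cycle that powers transport through it. They were chosen by symbol: every gene whose symbol is NUP followed by a digit (20 genes), and 18 listed genes, namely NSP1, NIC96, NDC1, POM34, POM152, GLE1, GLE2, SEH1, SEC13, MLP1, MLP2, GSP1, GSP2, RNA1, SRM1, YRB1, YRB2 and NTF2. All 38 had 1 probe set each among the 5338 genes tested. All 38 were called Present (detection p under 0.05) on all 36 arrays, as were 5276 of the 5338 genes, so none was lost to a filter on dim probes.

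The nuclear pore complex is the channel through the nuclear envelope. An outer ring and an inner ring form its scaffold, a membrane ring anchors it, nucleoporins with phenylalanine-glycine repeats fill the central channel, and filaments and a basket face the cytoplasm and the nucleus. Ran, a small GTPase, is loaded with GTP in the nucleus and hydrolyses it in the cytoplasm, and this gradient tells transport receptors where to pick up and where to release cargo. Growing yeast makes large numbers of pores and transports ribosome parts, messages and tRNAs through them.

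Strain BY4742, a laboratory strain of mating type alpha that cannot make several amino acids, was the wild-type. The other strains were an msn5 deletion and an mtr10 deletion. Msn5 is an exportin and Mtr10 an import receptor for RNA-binding proteins, and both take part in moving tRNAs between cytoplasm and nucleus. Cultures of each strain were grown at 30 °C to an OD600 of 0.35, divided, and incubated for 30 min either without amino acids (starved) or in the same synthetic medium with them (fed). All cultures then received cycloheximide at 100 µg/ml, which arrests ribosomes on messages. Lysates were separated on 10 to 50% sucrose gradients, and RNA was taken from the polysome fractions (messages carrying several ribosomes), from the non-polysome fractions, and from unfractionated lysate (total RNA). This gives 18 groups of msn5, mtr10 and wild-type cells, starved and fed, in 3 RNA pools, with 2 Affymetrix arrays each. The labels call the arrays of a group biological replicates. Whether either deletion strain is 1 clone is not given in the sources used here.

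Values are the deposited log2 signals, which the authors scaled so that every array has nearly the same distribution (array medians 10.65 to 10.73). A value therefore gives the place of a message among the other messages of that RNA sample, not its amount per cell, and a polysome signal above a non-polysome one means a message stands higher among polysome messages. Differences were tested with limma across all 5338 genes, and a gene was called at a Benjamini-Hochberg adjusted p under 0.05, as were all "rose" and "fell" below. With 2 arrays a group, the precision is limited by the number of arrays.

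Several facts of these arrays touch the results. MSN5 signal was 3.64 to 4.75 on 10 msn5 arrays but 6.85 and 7.23 on the fed non-polysome msn5 arrays, against 10.94 to 12.57 on the 24 arrays of the other strains. MTR10 was at 3.64 to 4.67 on 10 mtr10 arrays but at 5.17 and 5.48 on the fed non-polysome mtr10 arrays, against 9.99 to 11.09 on the arrays of the other strains. Both mutants thus have fed non-polysome arrays that stand apart, and the counts of called members that rest on them are given again with total RNA in their place. Total RNA includes the polysome messages, so a ratio to it is a different measure that can be smaller. A call lost with total RNA can come from that alone. The deposited table of MAS5 signals, another summary of the same probes, has 2 wild-type total RNA columns, 1 starved and 1 fed, whose values match the other medium. MAS5 counts are therefore given both without these 2 columns and with the table as deposited. Each fit shares 1 spread per gene over all groups, so these columns affect the as-deposited counts of every comparison. They affect those with wild-type total RNA most directly. A count from an alternative fit without the share over all genes beside it is not a result about these genes. The 7 markers of the opposite mating type, MATa, were higher as a sum in starved cells (signals added on the linear scale, then log2). Single markers did not all move: in mtr10 total RNA ASG7 was at -0.25, AGA2 at 0.50 and MFA1 at 0.36, none of them called. The summed total RNA signal of the 7 was 15.05 to 15.15 in starved and 10.86 to 11.01 in fed wild-type, 13.75 to 14.02 in starved and 10.85 in fed msn5, and 13.81 to 14.39 in starved and 13.27 to 13.36 in fed mtr10. The 4 MATalpha markers were at 14.79 to 14.80 in starved and 15.10 to 15.11 in fed wild-type, 13.32 to 13.37 in starved and 14.21 to 14.28 in fed msn5, and 14.58 to 14.63 in starved and 15.16 to 15.22 in fed mtr10. These MATalpha values are sums too, and single markers differed from them: with starvation STE3 was at 0.41 in wild-type and MF(ALPHA)2 at -4.42 in msn5. The part of the marker shift in the results below was not tested, and in bulk RNA a change in which cells are present and a change in RNA per cell cannot be told apart.

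Across the 18 groups the Ran genes ranged from the most variable members to some of the steadiest. GSP2 ran between 9.87 and 12.10 on the 36 arrays, with group means up to 2.13 log2 units apart, and SRM1 between 10.20 and 12.21, with group means up to 1.95 apart. NUP192 (1.92), GLE1 (1.86) and MLP2 (1.85) had the next largest distances between group means. The smallest were those of NUP49 (0.52), NUP116 (0.65), NUP120 (0.67), GSP1 (0.68) and NTF2 (0.73). Closely related genes (GSP1 and GSP2, NUP100 and NUP116, NUP157 and NUP170, MLP1 and MLP2, and NUP53 with its relative ASM4) can share signal on arrays, so values of single members of such pairs are less certain.

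The first question was how the messages responded to 30 min without amino acids. In wild-type total RNA, 21 of the 38 messages were called, 20 of them lower and 1 higher in starved cells, where 64.2% of all genes were called, 31.4% higher and 32.8% lower. The share called among the pore and Ran genes was thus not above the background (55.3%), while their calls lay almost entirely on the lower side, with a median change of -0.28 on the log2 scale against -0.03 over all genes.

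**Figure D1:**
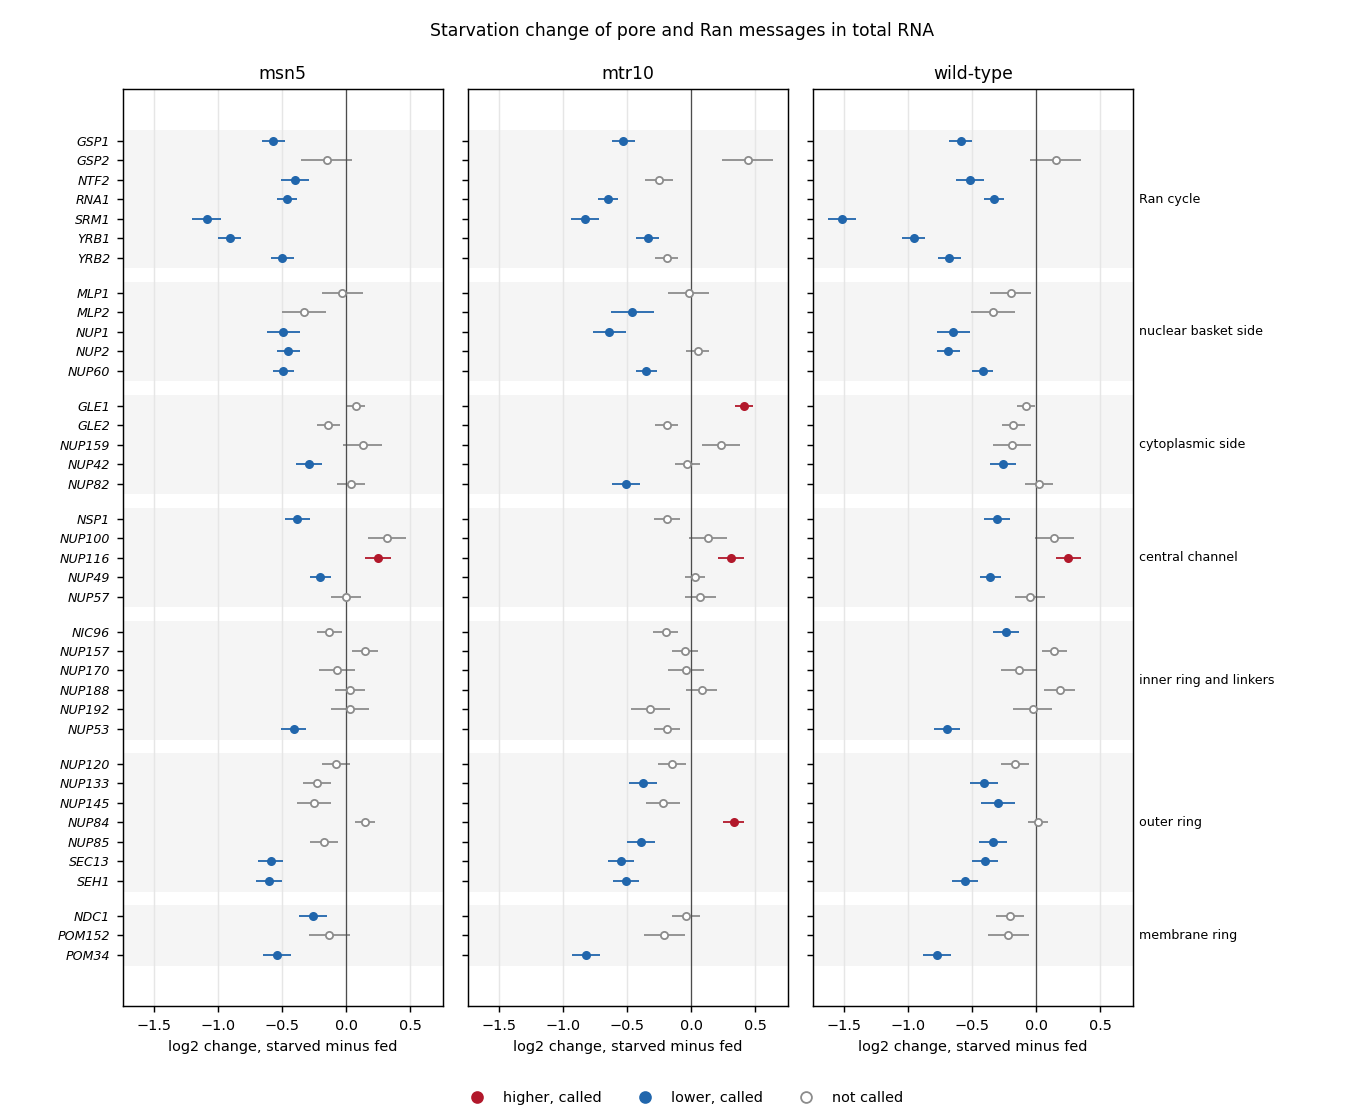
Starved minus fed log2 signal in total RNA (x axis) for each of the 38 genes (y axis, grouped by place in the pore) in msn5, mtr10 and wild-type cells; points are differences of means of 2 arrays, bars are 1 SE, and filled points were called. Most filled points lie left of 0, with SRM1 farthest in each strain (-1.09 in msn5, -0.83 in mtr10 and -1.52 in wild-type).

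The Ran cycle genes fell most uniformly, 6 of 7 in wild-type. SRM1 (YGL097W), the chromatin-bound exchange factor that loads Ran with GTP, was at 10.38 and 10.66 on the starved wild-type arrays, against 12.10 and 11.98 on the fed ones. This is a 2.86-fold fall (log2 -1.52 ± 0.11 SE, limma adjusted p = 2.09e-10), the largest of the 38. YRB1 (YDR002W), the cytoplasmic Ran-binding protein that helps release export complexes, was at 12.13 and 12.04 in starved against 13.08 and 13.01 in fed wild-type, a 1.95-fold fall (adjusted p = 4.58e-09).

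YRB2 (YIL063C), a nuclear Ran-binding protein that assists the exportin Crm1, stood at 10.03 and 9.92 in starved and 10.64 and 10.67 in fed wild-type, a 1.6-fold fall. GSP1 (YLR293C), the main Ran gene, averaged 12.94 ± 0.08 in starved against 13.53 ± 0.01 in fed cells (SD, n = 2 each), a 1.51-fold fall. NTF2 (YER009W), which carries Ran-GDP back into the nucleus, was at 12.55 and 12.61 in starved and 13.11 and 13.07 in fed wild-type, 1.43-fold lower. RNA1 (YMR235C), the GTPase activator that makes Ran hydrolyse GTP, fell least of the 6, at 11.41 and 11.38 in starved and 11.74 and 11.71 in fed cells (log2 -0.33 ± 0.08 SE, adjusted p = 0.00147). In all 6 the starved and fed arrays did not overlap. With 2 arrays a group this was also so for members not called, such as MLP1 and NDC1 (limma adjusted p = 0.28 and 0.105). The share over all genes was not counted. GSP2 (YOR185C), the second Ran gene, did not pass the test, at 11.53 and 11.26 in starved and 11.20 and 11.28 in fed wild-type (log2 0.15, adjusted p = 0.504).

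**Figure D2:**
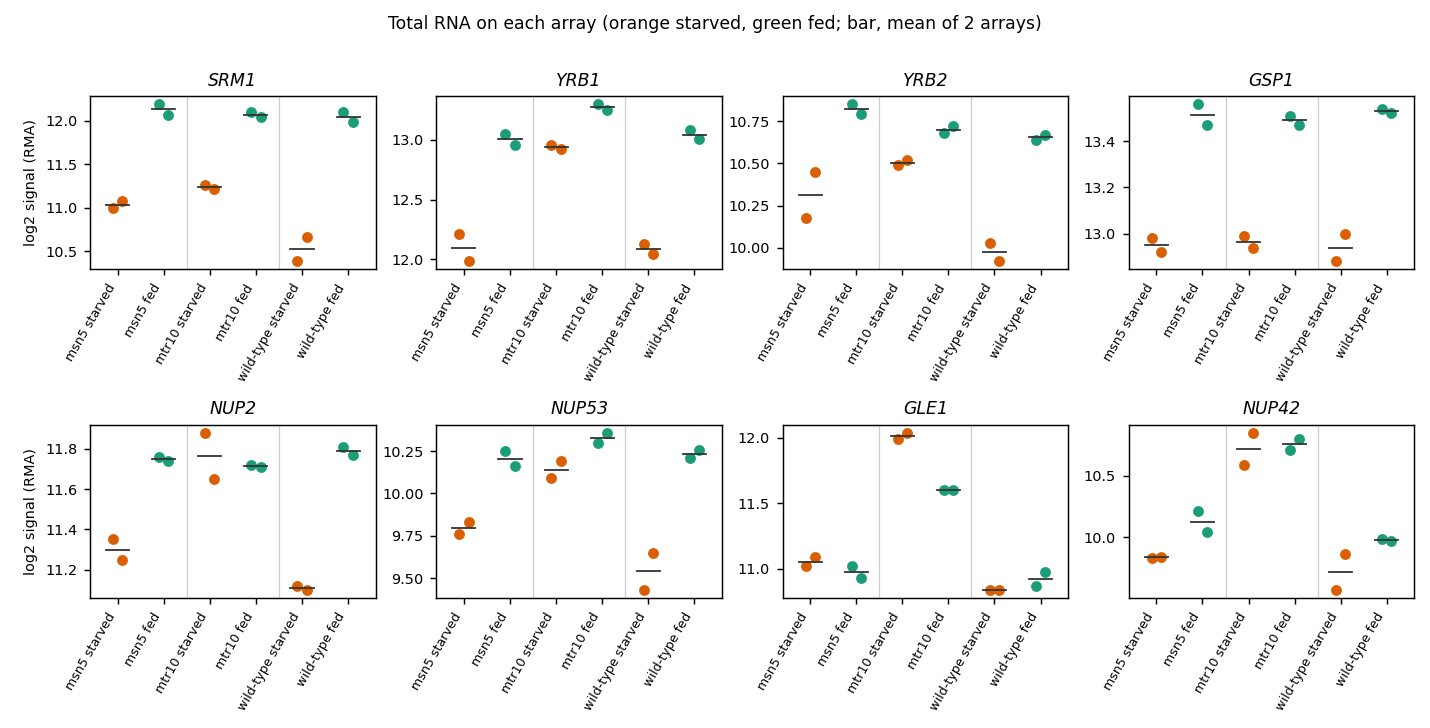
Total RNA signal (y axes, log2, RMA) on each array for 8 genes in msn5, mtr10 and wild-type cells, starved (orange) and fed (green); points are arrays and bars the mean of 2. SRM1 and GSP1 were lower in starved cells of every strain, while YRB1, NUP2 and NUP53 stood higher in starved mtr10 than in starved wild-type and GLE1 and NUP42 were high in mtr10 in both media.

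In the scaffold, 5 of 7 outer ring genes fell and none rose. SEH1 (YGL100W), an outer ring subunit that also belongs to a complex regulating growth signalling at the vacuole, was at 10.86 and 10.99 in starved against 11.49 and 11.48 in fed wild-type (1.47-fold lower). SEC13, shared between the outer ring and the coat of vesicles leaving the endoplasmic reticulum, fell by 0.40, NUP133 by 0.41, NUP85 by 0.34 and NUP145 by 0.30 on the log2 scale. NUP84 (0.01) and NUP120 did not pass. Of the 6 inner ring and linker genes, NUP53 (YMR153W), a linker nucleoporin, was at 9.43 and 9.65 in starved against 10.21 and 10.26 in fed wild-type and fell 1.62-fold, and NIC96 fell by 0.24 on the log2 scale. Among the 3 membrane ring genes, POM34 (YLR018C), a pore membrane protein, was at 10.11 and 10.34 in starved and 11.02 and 10.99 in fed cells, a 1.72-fold fall (adjusted p = 1.87e-06). Its partners NDC1 (-0.21) and POM152 (-0.22) did not pass.

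The nuclear basket side held 3 called genes of 5, all lower. NUP2 (YLR335W), a mobile nucleoporin that helps recycle importin, was at 11.12 and 11.10 in starved against 11.81 and 11.77 in fed wild-type (1.61-fold lower), while NUP1 fell 1.56-fold and NUP60 1.34-fold. Both basket filament genes missed the test, MLP1 at -0.20 and MLP2 at -0.34 on the log2 scale. Central channel genes split, with NUP49 (-0.36) and NSP1 (-0.31) lower and NUP116 higher (0.25 ± 0.10, adjusted p = 0.044). On the cytoplasmic side 1 of 5 was called, NUP42 (-0.26), a docking site for export factors. On MAS5 signals without the mismatched columns NUP116 (-0.03) and NUP42 (0.03) turned in sign.

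Of the 21 wild-type calls, 15 were kept whichever single array was left out. SEC13 was at -0.28 (adjusted p = 0.05) without fed replicate 1 and NSP1 at an adjusted p of 0.0519 without starved replicate 1. NUP145, NIC96 and NUP116 lost their calls without any one of the 4 arrays, with adjusted p up to 0.166, 0.148 and 0.13, and NUP42 without either fed array or starved replicate 1 (-0.41 to -0.12).

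The msn5 and mtr10 cells showed falls of many of these genes in their own starved cultures. In msn5, 18 messages were called, 17 lower and 1 higher (61% of all genes called, 28.8% higher and 32.2% lower), with a median of -0.21. In mtr10, 16 were called, 13 lower and 3 higher (48.7% of all genes, 24.8% higher and 23.9% lower), with a median of -0.19 against 0.01 over all genes. On MAS5 signals without the mismatched columns 18 were lower and 0 higher in msn5, 19 lower and 1 higher in mtr10 and 18 lower and 0 higher in wild-type. The share over all genes in that fit is not given here. With that table as deposited 12 were lower in msn5, 7 in mtr10 and 0 in wild-type, and 0 higher in each. That fit called 2524 of all genes in msn5, 1683 in mtr10 and 0 in wild-type. The wild-type 0 is therefore not a result about these genes. The as-deposited msn5 and mtr10 counts rest on a spread that includes the 2 mismatched columns, so they are no clean repeat of the test. Messages of 9 genes fell in all 3 strains, GSP1, NUP1, NUP60, POM34, RNA1, SEC13, SEH1, SRM1 and YRB1, which is 23.7% of the 38 against 18.4% of all genes. NUP116, a channel nucleoporin that docks the export factor Gle2, rose in all 3 (2.63% against 18.5% of all genes), but on MAS5 signals without the mismatched columns it was at 0.10 in msn5, 0.16 in mtr10 and -0.03 in wild-type and was called in none of them. NUP116 was at 11.52 and 11.53 in starved and 11.24 and 11.31 in fed msn5, 11.65 and 11.70 in starved and 11.36 and 11.37 in fed mtr10, and 11.51 and 11.50 in starved and 11.25 and 11.27 in fed wild-type. These arrays did not overlap, but each of the 3 calls was lost when single arrays were left out: without any one array in msn5 (adjusted p up to 0.184), and without either fed array or starved replicate 2 in mtr10 (up to 0.0851).

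In msn5, SRM1 was at 10.99 and 11.08 in starved against 12.19 and 12.07 in fed cells (2.13-fold lower, adjusted p = 4.68e-08), and YRB1 at 12.21 and 11.98 against 13.05 and 12.96 (1.88-fold lower). Again 6 of 7 Ran genes fell, all but GSP2 (11.72 and 12.04 in starved, 11.96 and 12.10 in fed msn5). In mtr10, SRM1 was at 11.26 and 11.21 in starved against 12.10 and 12.04 in fed cells (1.78-fold lower, adjusted p = 3.52e-06), and YRB1 at 12.96 and 12.92 against 13.30 and 13.25 (1.26-fold lower). RNA1 was at 11.14 and 11.15 in starved and 11.88 and 11.72 in fed mtr10, a 1.57-fold fall. There 4 of 7 Ran genes fell, and NTF2 (-0.25, adjusted p = 0.0596), YRB2 (-0.19, adjusted p = 0.09) and GSP2 (0.44, adjusted p = 0.0737) did not pass. NUP84 (0.33) and GLE1 (0.41 ± 0.07 SE, adjusted p = 6.36e-05) rose in starved mtr10.

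In msn5 13 of the 18 calls and in mtr10 13 of the 16 were kept whichever array was left out. The msn5 calls lost were those of NTF2 (-0.29, adjusted p = 0.0587, without starved replicate 1), NUP42 (up to -0.21, without starved or fed replicate 1), NDC1 and NUP49 (up to -0.19 and -0.13, without either fed array or starved replicate 2), and NUP116. In mtr10 they were MLP2 (up to -0.36, without either starved array or fed replicate 1), NUP133 (up to -0.30, without starved or fed replicate 2) and NUP116.

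Genes that work with the pore were counted in wild-type starvation beside the 31.4% of all genes that rose and the 32.8% that fell. Of 15 genes of pore assembly, 6 fell and 1 rose, among them MOG1, a Ran-binding import factor (-1.10), CDC31, the yeast centrin (-0.88), and BRR6, a nuclear envelope protein (0.70). In the mRNA export list of 18, 7 fell and 2 rose, with DBP5, the helicase that Gle1 activates, at -0.88 and HPR1, a subunit of the THO complex, at 0.70. Of 14 karyopherins, the transport receptors, 6 fell and 1 rose, with KAP123, an importer of ribosomal proteins, at -1.69 and KAP95, importin beta, at -1.07. Among the 10 partners of SEC13 and SEH1 in vesicle and vacuole coats, 4 fell and 3 rose.

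Whether the starvation response depended on the tRNA trafficking genes was tested as the difference between the responses of mutant and wild-type. For msn5, limma called 0 of 38 (0.693% of all genes called), with 1 at an unadjusted p under 0.05 and 0 by the same test on MAS5 signals, with or without the mismatched columns. The 0 with those columns cannot be read, since they mix the media within the wild-type groups. For mtr10 the difference was called for 8 of 38, 7 higher and 1 lower, where 14.3% of all genes were called, 6.41% higher and 7.89% lower. NUP2 was at 11.88 and 11.65 in starved and 11.72 and 11.71 in fed mtr10, against 11.12 and 11.10 in starved and 11.81 and 11.77 in fed wild-type. Its response was thus 0.73 ± 0.13 log2 units higher in mtr10 (adjusted p = 0.000614), and the mtr10 arrays of the 2 media overlapped while the wild-type ones did not.

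The same test gave 0.68 ± 0.16 for SRM1 (adjusted p = 0.00598), 0.62 ± 0.12 for YRB1 (adjusted p = 0.00163), 0.50 ± 0.10 for GLE1 (adjusted p = 0.00213) and 0.49 ± 0.13 for YRB2 (adjusted p = 0.0123). The linker NUP53 was at 0.51 (adjusted p = 0.0209) and the channel nucleoporin NUP49, named after its value was seen, at 0.39 (adjusted p = 0.0274). Both SRM1 and YRB1 fell in mtr10, by less than in wild-type, and NUP53 fell in wild-type (its change in mtr10 did not pass). NUP82 (YJL061W), which holds the cytoplasmic filaments, went the other way at -0.53 ± 0.16 (adjusted p = 0.026), with 9.32 and 9.26 in starved and 9.78 and 9.82 in fed mtr10, against 10.17 and 9.81 in starved and 9.96 and 9.97 in fed wild-type. Among the called Ran genes, YRB2 lost its call without starved wild-type replicate 2 (adjusted p = 0.0509), as NUP53 did without any of 4 arrays and NUP82 without any of 6 (0.40 to 0.62 and -0.71 to -0.35 over the 8 arrays left out in turn). On MAS5 signals 1 of 38 was called without the mismatched columns and 0 as deposited, where 94 of all genes were called. As deposited, each wild-type group holds 1 column that matches the other medium, so that 0 cannot bear on these calls.

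Set directly against wild-type, fed mtr10 cells had 8 of 38 messages called, 3 higher and 5 lower, against 39.5% of all genes, 18.8% higher and 20.7% lower. GLE1 (YDL207W), the cytoplasmic activator of the export helicase, stood out. It was at 11.60 and 11.60 in fed mtr10 against 10.87 and 10.98 in fed wild-type (1.6-fold higher, log2 0.68 ± 0.07, adjusted p = 2.78e-07), and at 11.99 and 12.04 in starved mtr10 against 10.84 and 10.84 in starved wild-type (2.25-fold higher, adjusted p = 6.4e-11). NUP42 (YDR192C), which binds Gle1 at the same face of the pore, was at 10.71 and 10.80 in fed mtr10 against 9.98 and 9.97 in fed wild-type (1.71-fold higher), and at 10.59 and 10.85 in starved mtr10 against 9.57 and 9.86 in starved wild-type (2.01-fold higher, adjusted p = 3.39e-08). In msn5 GLE1 was at 11.02 and 11.09 starved and 11.02 and 10.93 fed.

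**Figure D3:**
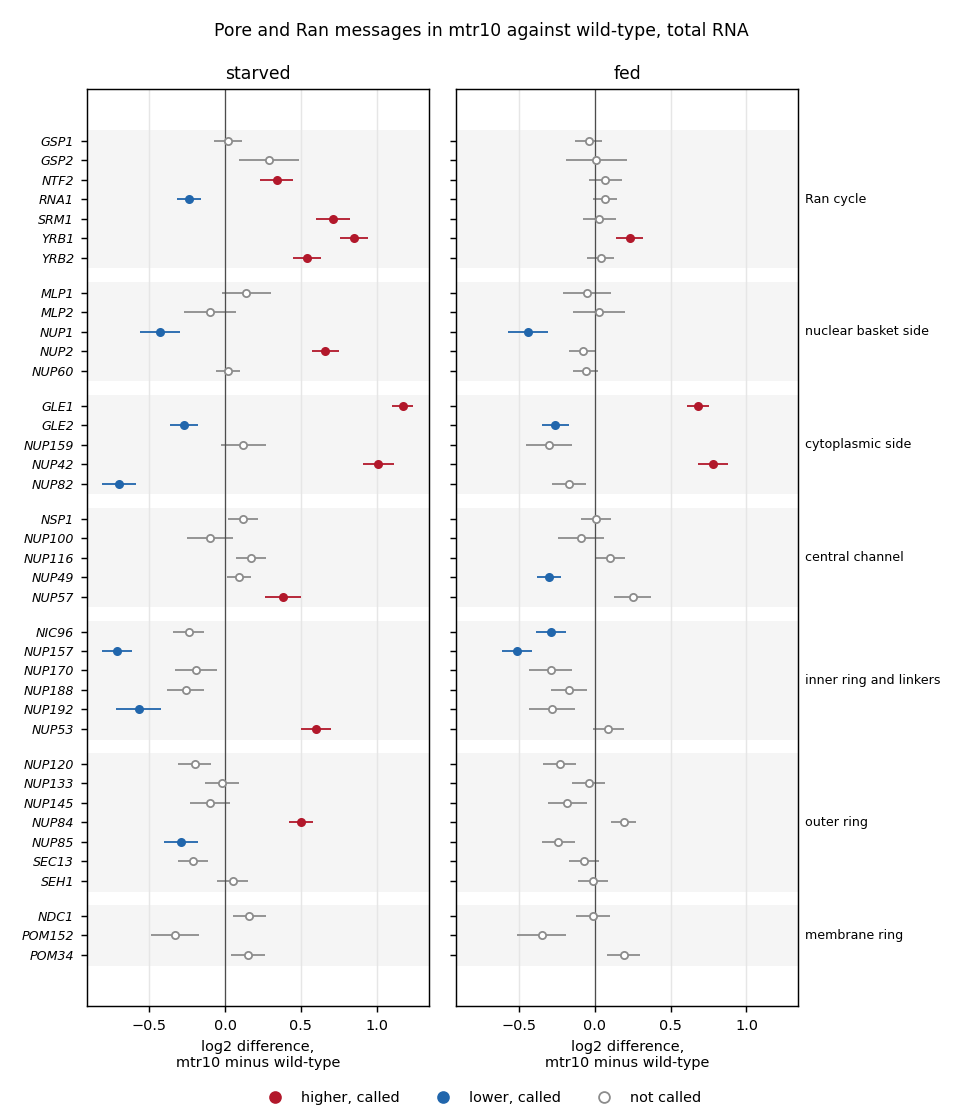
Total RNA log2 difference of mtr10 minus wild-type (x axis) for each of the 38 genes (y axis) in starved and fed cells; points are differences of means of 2 arrays, bars are 1 SE, and filled points were called. GLE1 and NUP42 lie farthest right in both panels, and YRB1, SRM1 and NUP2 lie to the right in the starved panel.

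NUP157 (YER105C), a large inner ring subunit, was the message with the largest fall against wild-type in both media. It was at 10.83 and 10.65 in starved mtr10 against 11.52 and 11.37 in starved wild-type (1.63-fold lower, adjusted p = 2.64e-06), and at 10.78 and 10.80 in fed mtr10 against 11.30 and 11.30 in fed wild-type (1.42-fold lower, adjusted p = 0.000225). GLE1, NUP42 and NUP157 are the 3 of 8 fed calls that were kept whichever array was left out. The others were YRB1 (0.23), NUP1 (-0.44), NUP49 (-0.30), NIC96 (-0.29) and GLE2 (-0.26). YRB1 and GLE2 lost their calls without any one array (adjusted p up to 0.19 and 0.135), NUP1 and NUP49 without mtr10 replicate 2 or wild-type replicate 1 (up to 0.0757 and 0.0542), and NIC96 without mtr10 replicate 2 or either wild-type array (up to 0.227).

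In starved cells 17 of 38 differed between mtr10 and wild-type, 10 higher and 7 lower, against 54.2% of all genes (25.7% higher and 28.5% lower), and the median over the 38 was 0.03. On MAS5 signals the split was 12 higher and 3 lower without the mismatched columns and 5 and 6 as deposited, and for fed cells 3 and 2 without them and 7 and 1 as deposited. The as-deposited fit called 1627 of all genes in starved and 1973 in fed cells. Besides GLE1 and NUP42, YRB1 was 1.81-fold higher (adjusted p = 6.54e-08), SRM1 1.64-fold, NUP2 1.58-fold, NUP53 1.52-fold and YRB2 1.45-fold in starved mtr10. The arrays of each did not overlap those of wild-type, which was also so for members not called, such as NUP116 and NDC1. NTF2 (0.34), and NUP84 (0.50) and NUP57 (0.38), the last 2 named after their values were seen, were also higher. NUP82 was 1.62-fold lower, and NUP192 (YJL039C), a large inner ring subunit, was at 10.35 and 10.27 in mtr10 against 11.02 and 10.73 in wild-type, 1.48-fold lower.

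NUP192 was at -0.42 (adjusted p = 0.0604) without wild-type replicate 1. NTF2 lost its call without mtr10 replicate 2 or wild-type replicate 1 (adjusted p up to 0.0792), NUP1 (-0.43) and GLE2 (-0.27) without replicate 2 of either strain (up to 0.0671 and 0.09), NUP85 (-0.29) without any one array (up to 0.0951), and RNA1 (-0.24) without either mtr10 array or wild-type replicate 1 (up to 0.0788). RNA1 turned in sign on MAS5 signals without the mismatched columns (0.12). The same wild-type arrays serve the starved, fed and difference comparisons, so these results are not independent of each other.

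Genes that work with the pore were counted in mtr10 as well, where 25.7% of all genes were higher and 28.5% lower in starved cells and 18.8% higher and 20.7% lower in fed cells. Of 18 mRNA export genes, 7 were higher and 1 lower in starved mtr10, with SEM1, a subunit of the TREX-2 export complex and the proteasome, at 1.53 and NPL3, an export adaptor and a cargo of Mtr10, at 1.29 on the log2 scale. In fed cells 7 were higher and 3 lower. Of the 15 assembly genes, 7 were higher and 2 lower in starved mtr10, with DYN2, a dynein light chain that also sits in the pore, at 1.67 and CDC31 at 1.09, and 5 were higher and 5 lower in fed cells. Of 14 karyopherins, 1 was higher and 6 lower in starved and 1 higher and 3 lower in fed mtr10, the deleted MTR10 included.

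The msn5 deletion gave few differences. In fed cells 1 of 38 was called, where 11.9% of all genes were and 6.58% were higher. GSP2 was at 11.96 and 12.10 in fed msn5 against 11.20 and 11.28 in fed wild-type (log2 0.79 ± 0.20, adjusted p = 0.0105), and lost the call without msn5 replicate 2 (0.72, adjusted p = 0.0899) or wild-type replicate 1 (0.75, adjusted p = 0.097). In starved cells 5 were called (20.2% of all genes, 9.25% higher and 10.9% lower): SRM1 (0.52), YRB2 (0.35) and GLE1 (0.21) were higher, and NUP82 (-0.32) and RNA1 (-0.24) lower. On MAS5 signals without the mismatched columns 0 were called, with GLE1 at -0.17 and RNA1 at 0.03, turned in sign, and 2 were called as deposited, where 703 of all genes were called. A fit of these 4 arrays alone called 0. None of the 5 kept its call whichever array was left out. SRM1 lost its call without wild-type replicate 1 (0.37, adjusted p = 0.07), YRB2 without replicate 2 of either strain (up to 0.225), NUP82 without replicate 1 of either strain (up to 0.508), RNA1 without msn5 replicate 2 or either wild-type array (up to 0.328), and GLE1 without any one array (up to 0.263).

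Next, the position of each message between polysomes and the non-polysome pool was compared. In fed wild-type, 23 of 38 were called, 16 higher in polysomes and 7 higher in non-polysome RNA, against 51% of all genes (26.5% higher and 24.5% lower in polysomes), and the median ratio was 0.20 against 0.02 over all genes (log2). On MAS5 signals the split was 19 and 4 without the 2 mismatched columns and 12 and 4 as deposited. The as-deposited fit called 2094 of all genes. Of the 7 Ran genes 5 leaned to polysomes. GSP2 was at 11.37 and 11.46 in polysome RNA against 9.93 and 9.87 in non-polysome RNA, a 2.86-fold ratio (adjusted p = 1.67e-06), and RNA1 was at 12.03 and 12.01 against 11.02 and 11.06, 1.97-fold (adjusted p = 5.38e-09). SRM1 was at 12.18 and 12.05 in polysome RNA and 11.41 and 11.56 in non-polysome RNA (1.55-fold), and YRB1 (0.29) and GSP1 (0.27) were slightly higher in polysomes.

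Among nucleoporins, SEH1 was at 11.91 and 11.76 in polysome against 10.64 and 10.71 in non-polysome RNA of fed wild-type (2.24-fold, adjusted p = 3.5e-09). NUP85, its direct partner in the outer ring, was at 11.20 and 11.10 against 10.33 and 10.37 (1.74-fold), and GLE2, an export factor bound to Nup116, was 1.47-fold higher in polysomes. On the non-polysome side lay POM152 (-0.52), NUP145 (-0.48), NIC96 (-0.45), NUP116 (-0.45), NUP133 (-0.44) and NDC1 (-0.38). Members of 1 ring therefore stood on both sides: in the outer ring 3 were higher in polysomes and 2 in the non-polysome pool. The calls on GSP1 (without polysome replicate 1 or non-polysome replicate 2, adjusted p up to 0.111), YRB1 (without non-polysome replicate 2, 0.0583), POM152 (without replicate 1 of either pool, up to 0.12) and NDC1 (without polysome replicate 1, 0.0897) rested on single arrays. With total RNA in place of non-polysome RNA, 2 of 38 were called, SEH1 (0.35) and RNA1 (0.30). GLE2 then turned in sign, with a polysome mean of 11.23 and a total RNA mean of 11.28. The share over all genes with this reference is not given here, so the smaller count is not a result about these genes.

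In starved wild-type, 24 were called, 19 higher in polysomes and 5 in the non-polysome pool (63.1% of all genes, 34.1% higher and 29% lower in polysomes), with a split on MAS5 signals of 12 and 6 without the mismatched columns and 12 and 1 as deposited. The as-deposited fit called 2258 of all genes. The largest ratios toward polysomes were those of scaffold, basket and channel genes. NUP85 (YJR042W) was at 11.28 and 11.07 in polysome against 9.67 and 9.73 in non-polysome RNA (2.78-fold, adjusted p = 3.42e-10), and MLP1 (YKR095W), a long coiled-coil protein of the basket, at 10.67 and 10.79 against 9.33 and 9.63 (2.38-fold). NUP192 (2.21-fold), MLP2 (2.18-fold), NUP100 (2.12-fold) and NUP57 (2.11-fold) followed. Against total RNA the MLP2 ratio turned in sign, with a polysome mean of 10.38 and a total RNA mean of 10.44. The 5 central channel genes were all higher in polysomes.

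No Ran gene was called on the polysome side in starved wild-type. RNA1 was at 11.29 and 11.34 in polysome against 11.61 and 11.62 in non-polysome RNA (log2 -0.30 ± 0.08, adjusted p = 0.00358), and SRM1 at 10.22 and 10.20 against 10.51 and 10.70 (-0.39, adjusted p = 0.00472). The SRM1 call was lost without non-polysome replicate 2 (adjusted p = 0.0681). So were those on NUP42 (-0.23) without polysome replicate 2 or either non-polysome array (up to 0.37), NUP60 (-0.22) without non-polysome replicate 2 or either polysome array (up to 0.124), and GLE1 (-0.21) without polysome replicate 2 or non-polysome replicate 1 (up to 0.102). With total RNA in place of non-polysome RNA, 11 of 38 were called. Again the share over all genes is not given, so the smaller count is not a result about these genes.

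**Figure D4:**
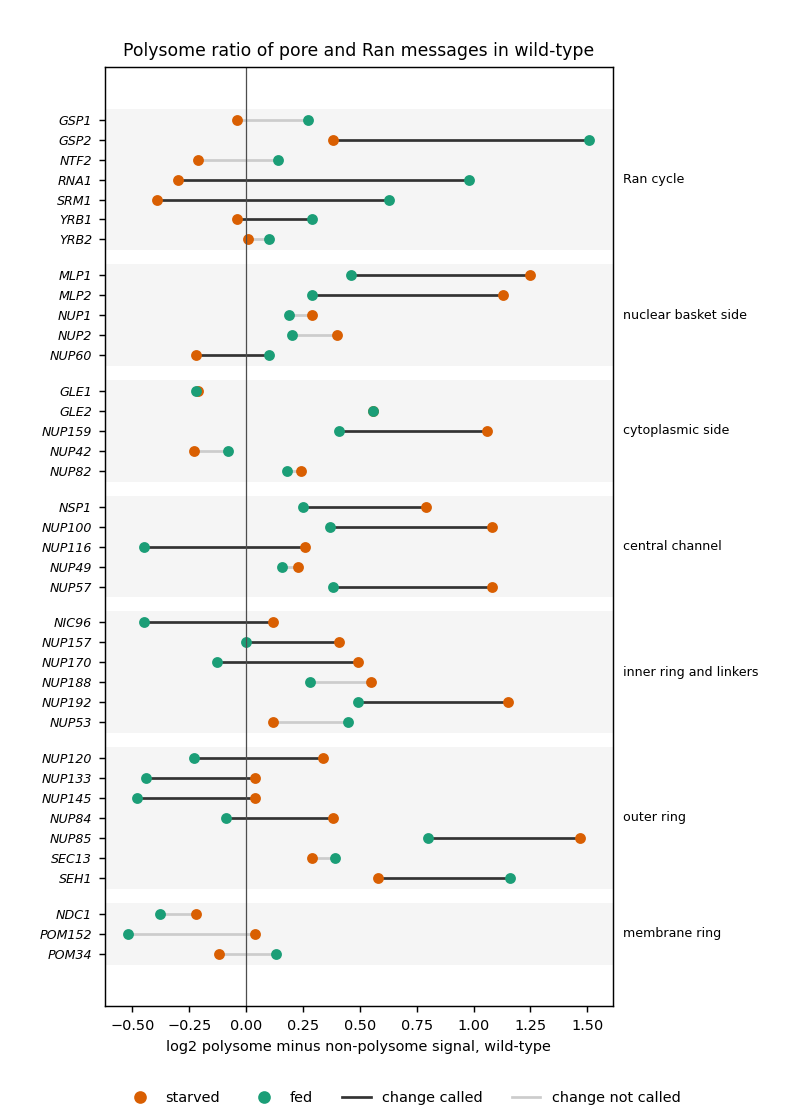
Polysome minus non-polysome log2 signal in wild-type (x axis) for each of the 38 genes (y axis), starved (orange) and fed (green), each the difference of means of 2 arrays; a dark line joins the points where the change was called. RNA1, GSP2, SRM1 and SEH1 lie farther left when starved, and most channel, inner ring and outer ring genes farther right.

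The change of this ratio with starvation was then tested in each strain. In wild-type 22 of 38 were called, 16 toward polysomes and 6 away, where 39.7% of all genes were called (23.3% toward and 16.4% away), with a median of 0.18 against 0.08 over all genes. On MAS5 signals the balance among these members turned, to 6 and 9 without the mismatched columns and 1 and 4 as deposited. The table as deposited called 1063 of all genes. Their split by direction was not counted, so whether all genes turned too is not known. Ran genes moved away, 4 of 7. RNA1 had the largest change, with -1.28 ± 0.12 (2.43-fold, adjusted p = 7.42e-07), then GSP2 with -1.13 ± 0.28 (adjusted p = 0.00337), SRM1 with -1.02 ± 0.16 (adjusted p = 7.69e-05) and YRB1 with -0.33. Of the nucleoporins SEH1 (-0.58 ± 0.13, adjusted p = 0.00204) and NUP60 (-0.32) moved the same way. GSP2 was at 11.38 and 11.18 in polysome against 11.17 and 10.63 in non-polysome RNA of starved cells, so its polysome signal was near that of fed cells and its non-polysome signal was higher. SRM1 instead was lower in both pools of starved cells.

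**Figure D5:**
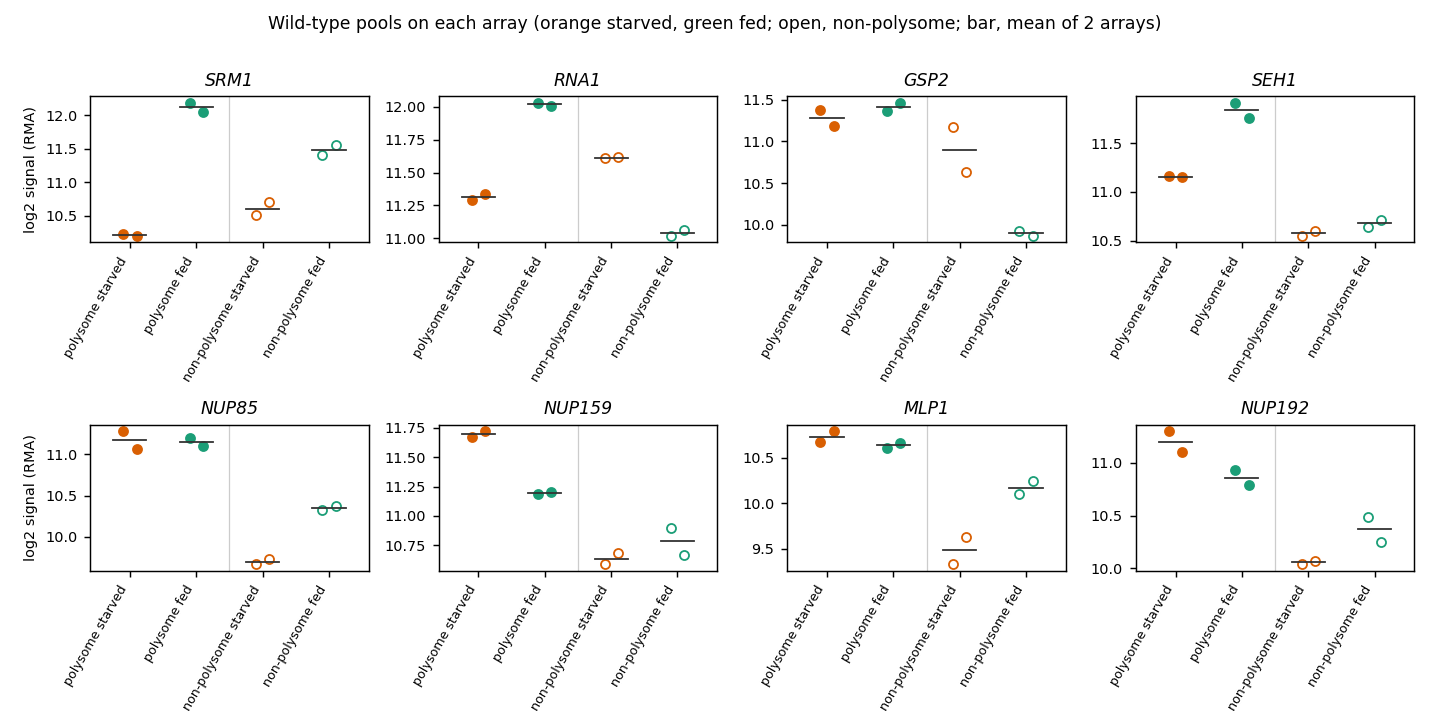
Wild-type signal (y axes, log2, RMA) of 8 genes on each array of the polysome pool (filled) and non-polysome pool (open), starved (orange) and fed (green); points are arrays and bars the mean of 2. RNA1 and GSP2 stand higher in the non-polysome pool of starved than of fed cells, while NUP85, MLP1 and NUP192 stand lower there and have polysome means at or above those of fed cells.

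Toward polysomes moved 4 of 5 channel genes, 5 of 7 outer ring genes and 4 of 6 inner ring genes, led in size by MLP2 (0.83), MLP1 (0.79), NUP100 (0.72), NUP116 (0.71), NUP57 (0.70) and NUP85 (0.68). For MLP1 the non-polysome signal was 9.33 and 9.63 in starved against 10.10 and 10.24 in fed wild-type, while polysome signals were 10.67 and 10.79 in starved against 10.61 and 10.66 in fed cells. SEH1 showed the reverse pattern, with 11.16 and 11.15 in starved against 11.91 and 11.76 in fed polysome RNA, and 10.55 and 10.60 against 10.64 and 10.71 in non-polysome RNA. MLP2 differed from MLP1 in that both pools were lower in starved cells. Its polysome means were 10.38 in starved and 10.57 in fed cells, and its non-polysome means 9.26 and 10.28. The calls on MLP1 (0.64, adjusted p = 0.0567) and MLP2 (0.62, adjusted p = 0.0675) were lost without the starved non-polysome array of replicate 1. NUP100 (up to 0.0795) lost its call without that array or starved polysome replicate 2, YRB1 without any of 6 arrays (up to 0.127), and NUP60 without any of the 8 (up to 0.0937). Among genes that work with the pore, 5 of 14 karyopherins, 7 of 10 coat partners, 8 of 18 mRNA export genes and 2 of 15 assembly genes moved toward polysomes, against 0, 0, 2 and 2 that moved away.

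In msn5 21 were called, 11 toward polysomes and 10 away (43.8% of all genes, 25.2% toward and 18.6% away). On MAS5 signals the split was 5 and 10 without the mismatched columns. As deposited it was 1 and 3, where 1258 of all genes were called. All 7 Ran genes moved away from polysomes, RNA1 by -1.30 ± 0.12 (adjusted p = 3.52e-07), SRM1 by -0.91, GSP2 by -0.74, YRB1 by -0.51, GSP1 by -0.47, NTF2 by -0.45 and YRB2 by -0.41. RNA1 was at 11.33 and 11.29 in polysome against 11.34 and 11.59 in non-polysome RNA of starved msn5, and at 11.90 and 11.96 against 10.75 and 10.82 in fed msn5. In mtr10 15 were called, 6 toward and 9 away (32.4% of all genes, 17.4% toward and 15% away). On MAS5 signals the split was 1 and 9 without the mismatched columns. As deposited it was 0 and 2, where 454 of all genes were called. RNA1 (-0.87, adjusted p = 3.66e-05), SRM1 (-0.85), NUP42 (-0.74) and SEH1 (-0.51) moved away there, and NUP159, the cytoplasmic filament nucleoporin that docks the export helicase, moved toward polysomes by 0.97 ± 0.21 (adjusted p = 0.00167). NUP159 was at 11.84 and 11.69 in polysome against 10.08 and 10.16 in non-polysome RNA of starved mtr10, and at 11.47 and 11.02 against 10.48 and 10.66 in fed mtr10.

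The calls of the Ran genes beyond RNA1, SRM1 and YRB1 were less firm in msn5. GSP1 lost its call without starved non-polysome replicate 1 (adjusted p = 0.0534), GSP2 without any of 7 arrays (up to 0.144), NTF2 without any of 4 (up to 0.122) and YRB2 without any of 3 (up to 0.0668). In all 3 strains RNA1, SEH1 and SRM1 moved away from polysomes (7.89% of the 38, against 9.24% of all genes), and NUP116, NUP159 and NUP84, the last 2 named after their values were seen, moved toward them (7.89% against 11.8%). In mtr10 the NUP116 call (0.40) was lost without any of 6 arrays (adjusted p up to 0.24).

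These changes of the ratio were called with non-polysome RNA as the reference and not with total RNA, which includes the polysome messages. Whether the lost calls come from the non-polysome arrays or from this different measure was not tested. With total RNA in place of non-polysome RNA, 0 of 38 were called in msn5, mtr10 or wild-type, where 4, 5 and 46 genes in all were called. RNA1 was then at -0.17 in msn5, -0.01 in mtr10 and -0.37 in wild-type (adjusted p = 0.641, 0.995 and 0.127), and SRM1 at -0.37, -0.35 and -0.39. GSP2 was at -0.02 in msn5 and -0.29 in wild-type, SEH1 at -0.12 in msn5, 0.16 in mtr10 and -0.12 in wild-type, and YRB1 at 0.17 in msn5 and 0.25 in wild-type, where the main test had it moving away. In msn5 GSP1 was at -0.08, NTF2 at -0.15 and YRB2 at 0.08, and in mtr10 NUP159 was at 0.29, NUP42 at -0.28 and NUP116 at -0.04. The test of a difference between strains called 0 of 38 for msn5 and for mtr10 against wild-type (0.0187% and 0% of all genes), with 0 and 5 at an unadjusted p under 0.05 and 0 on MAS5 signals, with or without the mismatched columns, and 0 with total RNA in place of non-polysome RNA.

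The polysome ratio was also read in starved cells of the mutants. In msn5 29 were called, 23 higher in polysomes and 6 in the non-polysome pool (67.6% of all genes, 36% higher and 31.6% lower in polysomes), and in mtr10 29, 24 and 5 (68.4%, 35.5% higher and 32.9% lower), with splits on MAS5 signals of 15 and 9 and of 20 and 7 without the mismatched columns, and of 14 and 4 and of 16 and 4 as deposited. The as-deposited fit called 2692 of all genes in msn5 and 2653 in mtr10. NUP192 was 2.62-fold higher in polysomes in msn5 and 3.65-fold in mtr10, and NUP85 2.78-fold in msn5 and 2.99-fold in mtr10. GLE1, high in mtr10 total RNA, was higher in the non-polysome pool there, with 11.97 and 11.85 in polysome against 12.45 and 12.56 in non-polysome RNA (log2 -0.59 ± 0.07, adjusted p = 2.51e-07), and NUP42 showed the same direction (-0.40, adjusted p = 0.00099).

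The ratios themselves were last compared between strains. For msn5 against wild-type, 0 of 38 were called in fed or starved cells (0.0562% and 0.0749% of all genes), with 1 and 3 at an unadjusted p under 0.05 and 0 on MAS5 signals, with or without the mismatched columns, and 0 with total RNA in place of non-polysome RNA. In fed mtr10 7 were called, all with a ratio further toward polysomes than in wild-type, against 8.3% of all genes and 4.23% higher: NUP192 by 1.09 ± 0.21 (adjusted p = 0.00358), MLP1 by 0.86, MLP2 by 0.82, NUP133 by 0.68, NUP145 by 0.64, the channel nucleoporin NSP1 by 0.56 and the outer ring gene NUP120, named after its value was seen, by 0.52. NUP192 was at 11.23 and 11.04 in polysome against 9.37 and 9.74 in non-polysome RNA of fed mtr10, and at 10.93 and 10.79 against 10.49 and 10.25 in fed wild-type.

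That comparison uses the fed non-polysome mtr10 arrays that stand apart. With total RNA in place of non-polysome RNA none of the 38 was called, with NUP192 at 0.56, MLP2 at 0.51 and MLP1 at 0.35. How many of all genes were called with this reference is not given here. NUP192 alone of the first 6 kept its call whichever array was left out; without single arrays of any of the fed groups the others reached adjusted p of up to 0.0697 (NUP133), 0.135 (NSP1 and NUP145), 0.144 (MLP1) and 0.208 (MLP2). In starved mtr10 1 of 38 was called (1.82% of all genes, 0.787% higher), RNA1, whose ratio was 0.63 ± 0.12 higher than in wild-type (adjusted p = 0.00804). RNA1 was at 11.41 and 11.40 in polysome against 11.03 and 11.12 in non-polysome RNA of starved mtr10, so it stood higher in polysomes there (0.33) and lower in starved wild-type. With total RNA in place of non-polysome RNA the RNA1 difference was 0.33 (adjusted p = 0.171). RNA1 was also not called on MAS5 signals, with or without the mismatched columns, or in a fit of only the compared groups.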

How the data were processed

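The authors summarised Affymetrix yeast arrays to log2 signals with RMA in the affy package, per the submitters' processing notes; their versions and the genome build were not stated there. They also deposited MAS5 intensity signals with detection p-values. Of 5684 probe sets with deposited log2 values, 5379 name 1 gene, through the platform annotation and RefSeq symbols (12 symbols updated); the probe set with the highest mean stood for each of 39 genes with several, giving 5338 genes. Groups came from the labels. limma 3.58.1 in R 4.3.3 was fitted to the log2 signals of all 36 arrays with 1 mean for each of 18 groups; tests were two-sided, with Benjamini-Hochberg adjustment over 5338 genes in each of 22 comparisons. The fit was also run on simulated data in which few genes were changed and the noise was independent between arrays. In these data large shares of all genes were called, so that run does not give the error rate here.

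Named in the text are, for the starvation response, any member, and elsewhere called members, at most 6 in each direction by size, and the 7 Ran genes. The members, the lists and this rule were chosen with earlier results of these data known. The lists of assembly, mRNA export, karyopherin and coat genes were described by counts, with values for a few called genes. Alternatives were MAS5 intensity (log2, floor 1.0, arrays centred), with and without 2 columns that match another group, median-centred arrays, only the compared groups, the replicate number as a block, genes Present on all arrays, the mean of probe sets, total RNA in place of non-polysome RNA, and leaving out each array. Replicate numbers were not taken as pairs. Same-numbered arrays deviated together with correlations between -0.39 and 0.46. For polysome against non-polysome RNA these were 0.46 (fed wild-type), 0.37 (starved wild-type), 0.42 (starved msn5) and -0.20 (starved mtr10). If same-numbered pools came from 1 culture, the tests between pools ignored that pairing. The replicate block was 1 shift shared by all arrays of replicate 2, not a pairing by culture. No sequences or coordinates were used.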

Additional observations from a re-analysis of the deposited data

Results flagged for a closer look

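The results here stood out because a difference itself differed between strains by limma's test, with adjusted p under 0.05 over all genes. The starvation response of total RNA differed between mtr10 and wild-type for 8 genes, at 0.73 for NUP2, 0.68 for SRM1, 0.62 for YRB1, 0.51 for NUP53, 0.50 for GLE1, 0.49 for YRB2, 0.39 for NUP49 and -0.53 for NUP82 on the log2 scale. The MATa marker signal also differed between these strains, at 13.27 to 13.36 in fed mtr10 and 10.86 to 11.01 in fed wild-type, and its part in these values was not tested.

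The polysome ratio differed between mtr10 and wild-type in fed cells for 7 genes, at 1.09 for NUP192, 0.86 for MLP1, 0.82 for MLP2, 0.68 for NUP133, 0.64 for NUP145, 0.56 for NSP1 and 0.52 for NUP120. In starved cells it differed for RNA1, at 0.63, but not on MAS5 signals or in a fit of only the compared groups. With total RNA in place of non-polysome RNA none of these ratio differences was called. With 2 arrays a group, no group was large enough for a test of single arrays that stand apart.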

How the results depend on the processing

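The 190 calls on named genes kept direction and call in 185 cases on median-centred arrays, in 190 with the mean of probe sets, in 190 with genes Present on all arrays, in 149 with only the compared groups, in 138 on MAS5 signals without mismatched columns, and in 189 with the replicate block, which lost NUP170 in the mtr10 ratio change. Of 99 polysome calls 17 were kept with total RNA in place of non-polysome RNA. The following counts of called members moved by over 1.5 times. With only the compared groups they were 6 (msn5 against wild-type, fed), 0 (the same, starved), 13 (ratio, starved msn5), 0 (ratio, starved mtr10 against wild-type), 3 (ratio change, msn5) and 9 (mtr10). Median-centred arrays gave 3 for starved msn5 against wild-type and 2 for the starved mtr10 against wild-type ratio, and the replicate block also gave 2 for that ratio. MAS5 signals as deposited gave 0 for starvation in wild-type, 7 in mtr10, 0 for the mtr10 response difference, 2 and 11 for starved msn5 and mtr10 against wild-type, 18 and 13 for the starved msn5 and wild-type ratios, 4, 2 and 5 for the ratio changes in msn5, mtr10 and wild-type, and 0 for the mtr10 against wild-type ratios, fed and starved. In that table the first wild-type total columns, starved and fed, correlate with the other medium (0.95 and 0.96). There 0 of all genes were called for starvation in wild-type. Single genes were not run on that table. Without those 2 columns the counts were 0 for starved msn5 against wild-type, 5 for fed mtr10 against wild-type, 3 and 0 for its fed and starved ratios and 1 for its response difference. With total RNA they were 11, 11 and 2 for the starved msn5, starved wild-type and fed wild-type ratios, 0 for both mtr10 against wild-type ratios and 0 for the 3 ratio changes. Without single arrays the counts were 0 to 1 and 2 to 3 (msn5 against wild-type, fed and starved), 3 to 6 and 11 to 15 (mtr10), 14 to 16, 13 to 15 and 16 to 19 (starvation in msn5, mtr10 and wild-type), 5 to 7 (mtr10 response difference), 13 to 19 and 20 to 21 (wild-type ratios, fed and starved), 24 to 29 and 22 to 26 (starved msn5 and mtr10 ratios), 10 to 28, 8 to 16 and 14 to 22 (ratio changes) and 1 to 9 (fed mtr10 against wild-type ratio). Signs turned on MAS5 signals for NUP116 (-0.03) and NUP42 (0.03) in wild-type starvation, GLE1 (-0.17) and RNA1 (0.03) in starved msn5 and RNA1 (0.12) in starved mtr10 against wild-type, and NUP116 (-0.04) in the mtr10 ratio change. With total RNA they turned for GLE2 (-0.05, fed wild-type ratio), MLP2 (-0.05, starved wild-type), GSP2 (-0.03, msn5; -0.26, mtr10) and YRB2 (0.07, msn5; 0.15, mtr10) in the starved ratios, and in the ratio changes for YRB1 (0.25, wild-type; 0.17, msn5), YRB2 (0.08, msn5; 0.07, mtr10), SEC13 (0.15), SEH1 (0.16) and NUP116 (-0.04) in mtr10. The causes were not tested.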
